A study of Mus musculus with 2 samples.

Results

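Genes of melanin synthesis and of the melanosome, the organelle in which melanin is made, were followed in single-cell RNA sequencing of newborn mouse eye cups. The set was a fixed list of 10 symbols, Pmel, Tyr, Tyrp1, Dct, Slc24a5, Slc45a2, Oca2, Gpr143, Mlana and Trpm1, each matched to its row among the 31053 features of the deposited count tables. All 10 were found. They were compared between pigment epithelium, melanocytes and unpigmented cells, and between genotypes.

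Eye cups came from pups at postnatal day 0 (P0), after removal of cornea, lens and optic nerve, and 3 were pooled for each library. The control library was Myrf fl/fl, in which both copies of Myrf carry sites for the recombinase cre but no cre is present. The mutant library was Rx>cre Myrf fl/fl, in which cre driven by Rx regulatory sequence acts in the early eye field, the source of the neural retina and of the retinal pigment epithelium (RPE). Myrf encodes a membrane-bound transcription factor. Both libraries thus carry the floxed alleles, and the control holds no cre transgene, so an effect of cre itself cannot be told apart from the loss of Myrf. With 1 library per genotype there was no replicate and no test between genotypes. Intervals given here are 95% intervals that cover counting error only, not the variation between cells or between animals.

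Melanin in the eye is made by the RPE, which arises from the eye field, and by melanocytes of the choroid and iris, which arise from the neural crest, outside the eye field. PMEL forms the fibrils of the young melanosome, tyrosinase and its relatives make the pigment on them, and membrane transporters set the ionic conditions in which these enzymes work. MITF, a basic helix-loop-helix factor, is the best known activator of these genes in both cell types, and binds a short element called the M-box.

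The deposited tables held 14305 control barcodes with 79017429 unique molecular identifiers (UMIs, 1 for each captured transcript end) and 12222 mutant barcodes with 76272867 UMIs. After filters on quality and doublets 12449 control and 10797 mutant cells remained. Clustering without the members and the other pigment genes gave 1 RPE-like cluster with 484 control and 187 mutant cells, and 1 melanocyte-like cluster with 30 and 18 cells. Retinal progenitor-like cells, which make no pigment, numbered 3286 and 3949. Of the RPE marker list 11 of 12 genes were detected in control RPE-like cells and 10 of 12 in mutant cells, with summed levels of 10476 and 3390 CPM (UMIs per 1000000 UMIs of the class). Tfec was at 0 in both and Rpe65 was at 0 in the mutant. Myrf itself had 745 UMIs (231 CPM) in control RPE-like cells and 61 UMIs (26.9 CPM) in mutant ones, a log2 ratio of mutant to control of -3.06. Pax3, a defining melanocyte gene, was at 0 in the RPE-like cells of both libraries, and Myrf was at 0 in melanocyte-like cells of both.

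Several features of the libraries moved with genotype. Median depth was 2551 UMIs in control and 10675 in mutant RPE-like cells, against 18380 and 16816 in melanocyte-like cells and 4737 and 4894 in progenitor-like cells. Cells that held Xist but lacked Y-linked UMIs (called Xist cells) made up 7.13% of the control and 70.5% of the mutant library, so the pools differed in sex. Among RPE-like cells the Xist cells made up 16.3% and 39.6%. Cells that held Y-linked UMIs but lacked Xist are called Y cells. Mesenchyme markers, all 8 of them detected in both libraries, summed to 1626 CPM in control and 175 CPM in mutant RPE-like cells. The gap was not confined to pigmented cells. These markers summed to 834 and 164 CPM in progenitor-like cells and to 1326 and 189 CPM in photoreceptor-like cells. Of the 2 libraries' barcodes 59 were shared (0.412% and 0.483% of each library), among them those of 3 RPE-like cells in each library and of 0 melanocyte-like cells. The part of mesenchymal and lens RNA in the results below was not tested. Depth and sex were each examined within groups of cells alike in that feature.

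Promoters of the members were read from the RefSeq promoter table (GRCm38.p6, 250 bases before to 50 bases after the start in that table). In it 6 of the 10 members were matched with 7 promoters. This start can differ from that of the gene spans given below. The Tyrp1 span begins at 80834123, so the Tyrp1 M-box lies inside that span. The second promoter of Trpm1 lies inside the Trpm1 span. The M-box was searched as TCATGTG on the gene strand or CACATGA, the same element on the other strand. The other motifs searched were CACGTG, which reads the same on both strands, and TAATCC or GGATTA, and none of their hits in these promoters overlapped an M-box. An M-box was present in 5 of the 7 member promoters and in 3.77% of all 32851 promoters in the table. CACGTG was present in 1 of the 7, the second promoter of Trpm1, against 7.15% of all promoters. TAATCC, a motif bound by OTX factors, was present in 3 of the 7 (Tyrp1, Dct and the first promoter of Trpm1), against 7.06% of all. The promoters of the enzyme genes and of Slc24a5 are shown because they share this element, while the ratio between genotypes differed among them in size and, for Tyr, in sign. The M-box stands in capitals.
Tyr, chr7:87493463-87493762, minus strand, M-box starting 22 bases before the start: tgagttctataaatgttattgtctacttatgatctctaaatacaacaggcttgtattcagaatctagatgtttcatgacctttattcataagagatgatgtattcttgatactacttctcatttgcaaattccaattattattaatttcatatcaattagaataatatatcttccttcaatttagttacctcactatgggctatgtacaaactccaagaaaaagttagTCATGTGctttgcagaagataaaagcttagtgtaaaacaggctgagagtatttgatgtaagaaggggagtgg
Tyrp1, chr4:80833963-80834262, plus strand, M-box starting 47 bases before the start: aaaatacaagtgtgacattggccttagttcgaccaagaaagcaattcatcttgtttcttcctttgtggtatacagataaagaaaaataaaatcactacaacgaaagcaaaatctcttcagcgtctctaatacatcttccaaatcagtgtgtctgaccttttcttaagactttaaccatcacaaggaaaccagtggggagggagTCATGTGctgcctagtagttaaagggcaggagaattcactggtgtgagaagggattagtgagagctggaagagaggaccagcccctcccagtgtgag
Dct, chr14:118052197-118052496, minus strand, M-boxes starting 151 and 232 bases before the start: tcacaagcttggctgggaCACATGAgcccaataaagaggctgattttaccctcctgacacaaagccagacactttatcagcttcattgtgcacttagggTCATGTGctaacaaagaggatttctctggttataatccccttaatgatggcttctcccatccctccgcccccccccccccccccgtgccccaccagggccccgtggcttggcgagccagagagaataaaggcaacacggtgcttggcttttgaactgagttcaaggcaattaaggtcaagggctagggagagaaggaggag
Slc24a5, chr2:125067877-125068176, plus strand, M-box in the other orientation starting 13 bases before the start: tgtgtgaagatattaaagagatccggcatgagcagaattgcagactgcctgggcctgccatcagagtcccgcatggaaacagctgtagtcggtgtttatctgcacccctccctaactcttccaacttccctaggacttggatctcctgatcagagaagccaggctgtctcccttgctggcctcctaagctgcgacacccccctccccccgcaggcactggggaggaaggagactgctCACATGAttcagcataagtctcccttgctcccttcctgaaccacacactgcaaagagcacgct
The first promoter of Trpm1 had the motif 142 bases before its start, and the Oca2 promoter held none of the letters searched. A match is a description of the letters only.

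Pmel (ENSMUSG00000025359, chr10:128704195-128720238), whose product is the amyloid scaffold on which melanin is laid down, gave the most UMIs of the set in RPE-like cells. It had 44755 UMIs in control and 24272 in mutant cells, or 13897 CPM (13769 to 14026) and 10717 CPM (10583 to 10853). Its log2 ratio of mutant to control was -0.37 (-0.40 to -0.35), a level 1.3 times higher in the control library.

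The 3 melanogenic enzymes did not go the same way. Tyr (ENSMUSG00000004651, chr7:87424771-87493512) encodes tyrosinase, the rate-limiting enzyme of melanin synthesis. It was at 950 CPM in control and 1174 CPM in mutant RPE-like cells, a log2 ratio of 0.30 (0.23 to 0.38). It was the only member whose interval lay above 0 in these cells, but among the Xist cells of the class its interval included 0. Tyrp1 (ENSMUSG00000005994, chr4:80834123-80851719), a tyrosinase relative that acts on dihydroxyindole carboxylic acid, was at 1385 and 979 CPM, a log2 ratio of -0.50 (-0.57 to -0.43). Dct (ENSMUSG00000022129, chr14:118012790-118052244), the dopachrome tautomerase, was at 5838 and 4536 CPM, a log2 ratio of -0.36 (-0.40 to -0.33). Tyrosinase transcripts were thus relatively more abundant in the mutant RPE-like cells while those of its relatives were less abundant. Per 100 Pmel UMIs there were 6.84 Tyr UMIs in control and 11 in mutant cells, 9.97 and 9.13 Tyrp1 UMIs, and 42 and 42.3 Dct UMIs.

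Summed over all RPE-like cells the 3 transporters were lower in the mutant, to different degrees, and for Slc45a2 and Oca2 the sign was not the same in every set of cells. Slc24a5 (ENSMUSG00000035183, chr2:125068124-125088677), a potassium-dependent sodium-calcium exchanger, had 3084 and 1298 UMIs, or 958 and 573 CPM, and its log2 ratio was -0.74 (-0.84 to -0.65). Slc45a2 (ENSMUSG00000022243, chr15:11000721-11029233), a transporter linked to melanosomal pH, was at 103 and 72.4 CPM, a log2 ratio of -0.51 (-0.79 to -0.24). Oca2 (ENSMUSG00000030450, chr7:56239760-56536518), whose product contributes to a melanosomal chloride current, was at 260 and 229 CPM with a log2 ratio of -0.18 (-0.34 to -0.02). The interval for Oca2 came close to 0. In cells of at most 2000 UMIs Slc45a2 stood at 0.75 on 20 and 6 UMIs (-0.84 to 2.13) and Oca2 at 0.07 on 43 and 8 UMIs (-1.23 to 1.18). In cells of over 4000 up to 8000 UMIs Oca2 stood at 0.52 (-0.17 to 1.21), so the intervals of these values included 0. After thinning each cell to 1000 UMIs Slc45a2 stood at 0.75. Slc24a5 was below 0 in each of these sets of cells. Counts for Slc24a5 also carry a limit from an overlapping gene that is described further on.

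Gpr143 (ENSMUSG00000025333, chrX:152781921-152808646) encodes the ocular albinism receptor, which controls melanosome number and size. It had the lowest ratio of the set, with 383 and 123 UMIs, 119 and 54.3 CPM, and a log2 ratio of -1.12 (-1.44 to -0.83), a 2.19-fold higher level in the control. Gpr143 lies on the X chromosome and the pools differed in sex. Among Xist cells of the RPE-like class its levels were 127 and 52.4 CPM (-1.26, -1.72 to -0.84), and among Y cells they were 123 and 60.3 CPM (-1.01, -1.66 to -0.44). The lower level in the mutant was therefore present within both kinds of cell. Within the control library the 2 kinds of cell had near-equal levels of Gpr143.

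Mlana (ENSMUSG00000024806, chr19:29697824-29708634), a small membrane protein of young melanosomes that works with PMEL, was at 1214 and 1003 CPM, a log2 ratio of -0.28 (-0.35 to -0.20). Trpm1 (ENSMUSG00000030523, chr7:64153835-64269775), a cation channel also used by ON bipolar cells, was at 1297 and 1350 CPM, a log2 ratio of 0.06 (-0.01 to 0.13). Trpm1 was the only member whose interval included 0 in RPE-like cells. Its span holds the microRNA gene Mir211 on the same strand.

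Across the set 2 of 10 members, Slc24a5 and Gpr143, were lower in mutant RPE-like cells by at least 1.5-fold and 0 were higher by that much. Of the 11032 genes with at least 20 UMIs in these cells, 12.0% were lower and 7.54% were higher by that fold, so a count of 2 stands close to what genes at large gave. The median log2 ratio of the members was -0.37, against -0.01 for all measured genes with quartiles of -0.30 and 0.24. Summed over the set the levels were 26021 and 20688 CPM, a log2 ratio of -0.33 (-0.35 to -0.31). With each cell given the same weight the ratio was nearer to 0, at -0.06 as a mean of CPM per cell and at -0.10 after thinning each cell to 1000 UMIs. By their counting intervals 8 members were lower in the mutant library and 1 was higher, against 13.9% and 12.7% of all measured genes. Genes with many UMIs, such as most members, pass this rule at small ratios, so nothing about the set is read from that count. All 10 members were still detected in the mutant. The targeted gene Myrf, by contrast, was 8.59 times higher in the control.

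**Figure D1:**
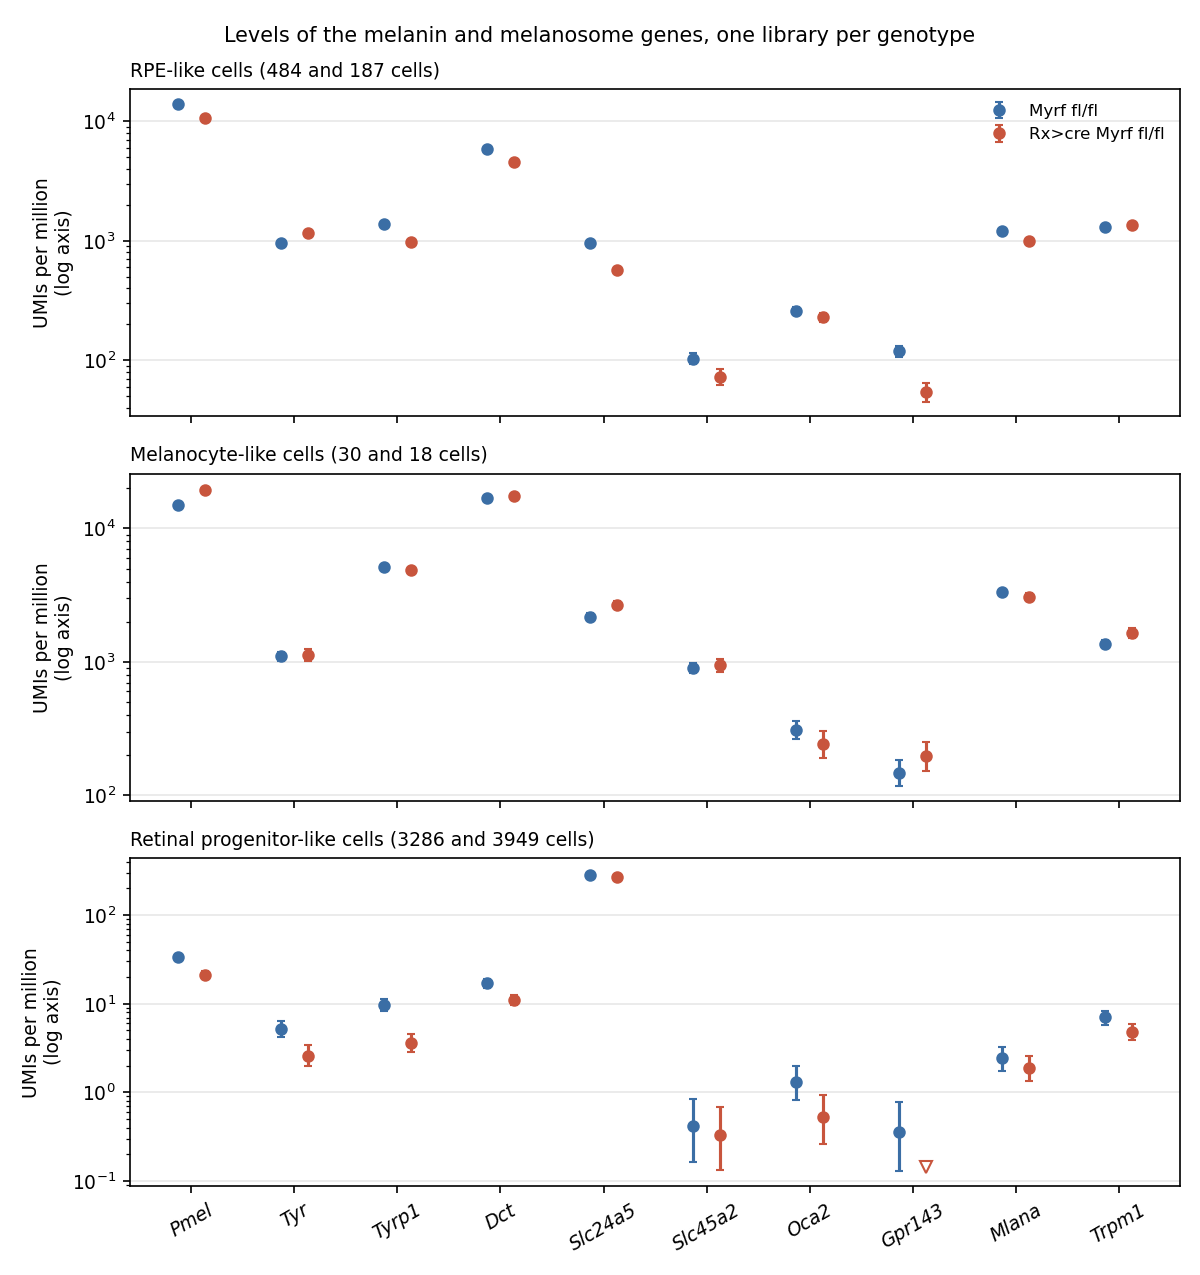
CPM (log axis) of each member in RPE-like, melanocyte-like and retinal progenitor-like cells of the control (blue, Myrf fl/fl) and mutant (red, Rx>cre Myrf fl/fl) library, with 95% Poisson intervals that cover counting error only. The open triangle marks the upper limit where no UMI was seen, Gpr143 in mutant progenitor-like cells. In the lowest panel 9 members sit at or below 33.3 CPM and Slc24a5 alone sits near 287 and 271 CPM.

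The difference in RPE-like cells varied with the depth of the cells compared. In cells of at most 2000 UMIs (206 control and 40 mutant cells) the summed members were at 19725 and 23383 CPM, higher in the mutant by a log2 ratio of 0.25 (0.14 to 0.35). In cells of over 2000 up to 4000 UMIs (83 and 17 cells) the log2 ratio was -0.05 (-0.15 to 0.06). It was -0.13 (-0.20 to -0.06) in cells of over 4000 up to 8000 UMIs (44 and 21 cells) and -0.11 (-0.14 to -0.08) in cells of over 8000 up to 16000 UMIs (73 and 48 cells). Over 16000 UMIs (78 and 61 cells) the levels were 28438 and 19369 CPM, a log2 ratio of -0.55 (-0.58 to -0.53). In control cells the summed level was thus higher in the deepest bin than in the shallowest one, whereas in mutant cells it was lower in the deepest bin.

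Single members differed in how they followed this pattern. In the deepest cells 6 of 10 members were lower by at least 1.5-fold, with log2 ratios of -1.50 for Gpr143, -1.06 for Slc24a5, -0.81 for Slc45a2, -0.67 for Mlana, -0.63 for Pmel and -0.62 for Tyrp1. Of the 9715 genes measured in these cells 12.3% were lower by that fold, and their median was 0.03, against -0.62 for the members. Mlana was higher in the mutant in cells of at most 2000 UMIs (764 and 1212 CPM, 0.66, 0.17 to 1.13) and lower in the deepest cells (1331 and 836 CPM). Trpm1 was higher in the shallowest cells (0.77, 0.38 to 1.15) and at -0.16 (-0.26 to -0.07) in the deepest. Tyr was at 1061 and 1252 CPM in the deepest cells (0.24, 0.14 to 0.33), so its higher level in the mutant was present there too. Gpr143, Slc24a5 and Tyrp1 were below 0 in all 5 depth bins, although for each of them the intervals of some bins included 0. In cells of over 8000 up to 16000 UMIs Gpr143 was at -0.41 (-0.98 to 0.13) and Slc24a5 at -0.39 (-0.58 to -0.22), and Tyrp1 (-0.63, -0.78 to -0.48) was the 1 member lower by at least 1.5-fold, against 18.1% of all measured genes.

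**Figure D2:**
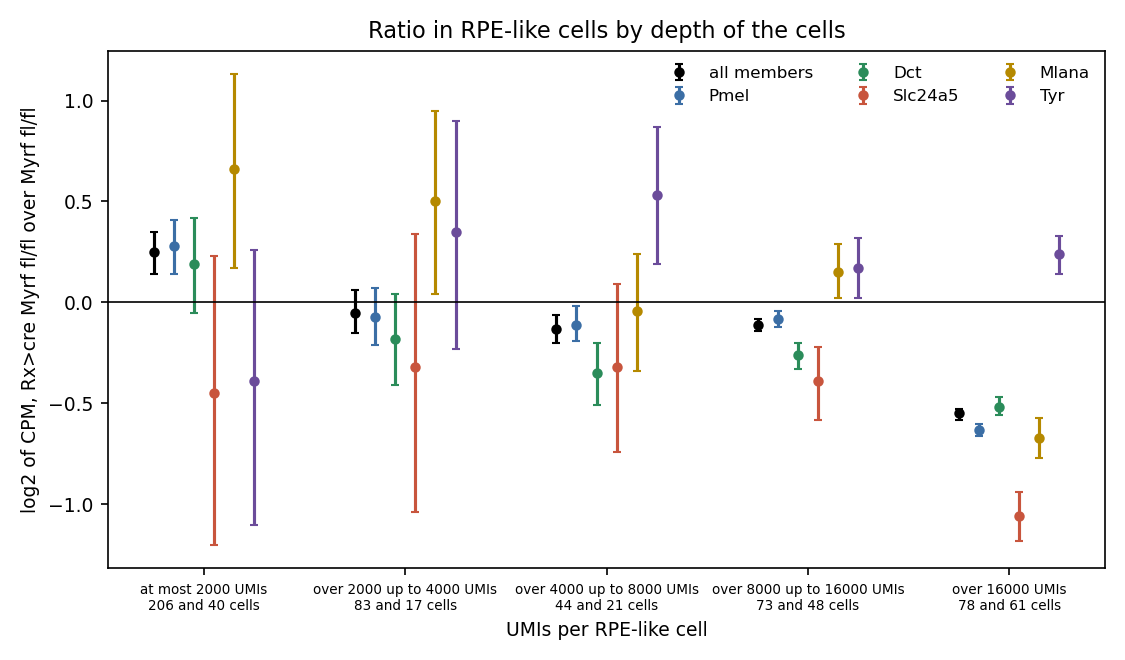
Log2 ratio of CPM, Rx>cre Myrf fl/fl over Myrf fl/fl, in RPE-like cells grouped by UMIs per cell, for the summed members and 5 single members, with 95% intervals for counting error. The summed members go from 0.25 in the shallowest cells to -0.55 in the deepest, while Tyr stays above 0 in every bin but the shallowest.

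A finer clustering split the RPE-like cells in the same way. A deep cluster led by Rgr, a retinal opsin of the RPE, held 127 control and 82 mutant cells with medians of 15426 and 18446 UMIs. There the members' median log2 ratio was -0.61 and 5 of 10 were lower by at least 1.5-fold, against 13.7% of all measured genes. Mlana was at 1302 and 800 CPM in this cluster and Trpm1 at 1284 and 1050 CPM. The other cluster, led by Pcp4, a small calmodulin-binding protein, held 357 and 105 cells with medians of 1653 and 3607 UMIs, and there the median was 0.17. In these cells 1 member, Gpr143, was lower by that fold, against 14.9% of all measured genes, and 1, Trpm1 (1320 and 1999 CPM, 0.60, 0.49 to 0.70), was higher, against 9.06%. Depth and cell state cannot be told apart in this split.

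Sex was examined within RPE-like cells. Among Xist cells (79 control and 74 mutant) the median log2 ratio of the members was -0.51, with Pmel at -0.50, Dct at -0.53 and Slc24a5 at -0.96. Among Y cells (128 and 34) it was -0.26, with Pmel at -0.34, Dct at -0.15 and Slc24a5 at -0.58. Tyr was at 1144 and 1223 CPM among Xist cells (0.10, -0.02 to 0.21), where its interval included 0, and at 945 and 1141 CPM among Y cells (0.27, 0.12 to 0.42). In both kinds of cell Gpr143 and Slc24a5 had the lowest ratios of the set, and both medians lay below 0. Median depths in these cells were 11325 and 19744 UMIs for the first kind and 10196 and 13582 for the second, so the groups were not matched in depth. Among cells over 8000 UMIs the summed members were at -0.53 (-0.56 to -0.51) in Xist cells (48 and 65). In Y cells over 8000 UMIs (73 and 28) they were at -0.24 (-0.27 to -0.21).

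Cell by cell, after each cell was thinned to 1000 UMIs, RPE-like cells held a median of 22 member UMIs in the control (386 cells) and 20 in the mutant (164 cells). The 98 control and 23 mutant cells with fewer UMIs were left out. Cells with 0 UMIs of any member made up 2.33% and 2.44%. Pmel was seen in 94.8% (92.1 to 96.8) of control and 95.7% (91.4 to 98.3) of mutant cells, against 3.35% and 2.13% of progenitor-like cells, and the unthinned shares were 96.1%, 96.8%, 13.1% and 8.2% in the same order. In both libraries Pmel was therefore detected in a far larger share of RPE-like than of progenitor-like cells. The spread was wide, with an interquartile range of 13 to 31 member UMIs per cell in the control and 13 to 28 in the mutant. The variance of these counts was 7.04 times their mean in the control and 6.53 times in the mutant. Both lie above what counting error alone gives. Across control RPE-like cells the logarithms of 1 plus the thinned count of Pmel and of Dct had a Pearson r of 0.63 over 386 cells. Across mutant cells it was 0.48 over 164 cells, as a description of cells that share a library. Slc24a5 had 0 thinned UMIs in 48.7% of control and 61.6% of mutant RPE-like cells.

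In melanocyte-like cells the members took a larger share of all UMIs than in RPE-like cells, and 6 of the 10 had ratios between genotypes whose interval included 0, as did 91.6% of all measured genes. Summed over the members the levels were 46422 CPM in the 30 control cells and 51553 CPM in the 18 mutant cells, with a log2 ratio of 0.15 (0.12 to 0.18). Pmel was at 14956 and 19391 CPM (0.37, 0.33 to 0.42), Slc24a5 at 2179 and 2658 CPM (0.29, 0.16 to 0.41) and Trpm1 at 1366 and 1639 CPM (0.26, 0.10 to 0.42). These 3 were higher in the mutant library, and Mlana was slightly lower (3319 and 3061 CPM, -0.12, -0.23 to -0.01). A gate on marker UMIs in place of clusters took in 321 control and 235 mutant cells, but most of them were not melanocyte-like. All 30 and 18 melanocyte-like cells were among them and held 32.2% and 49.2% of the gate's member UMIs, while 108 and 36 RPE-like cells held 65.3% and 49.7%. In the gate the summed levels were 20185 and 12604 CPM, a ratio of -0.68, and 6 of 10 members were lower by at least 1.5-fold, against 8.79% of all measured genes. Mesenchyme markers summed to 1533 CPM in control melanocyte-like cells, with all 8 detected, and to 42.4 CPM in mutant ones, with 2 of 8 detected, and their part in the result was not tested.

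Among the other 6 members, Tyr was at 1099 and 1121 CPM, Tyrp1 at 5119 and 4846 CPM, Dct at 17020 and 17455 CPM and Slc45a2 at 906 and 942 CPM. Oca2 was at 311 and 242 CPM, a log2 ratio of -0.36 with an interval of -0.76 to 0.03, and Gpr143 at 147 and 197 CPM, 0.42 with an interval of -0.07 to 0.90. Neither difference was detectable at this depth. By the fold of 1.5, 0 of 10 members were lower and 0 were higher, against 11.7% and 10.4% of the 5621 genes measured in these cells. The members' median was 0.05.

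**Figure D3:**
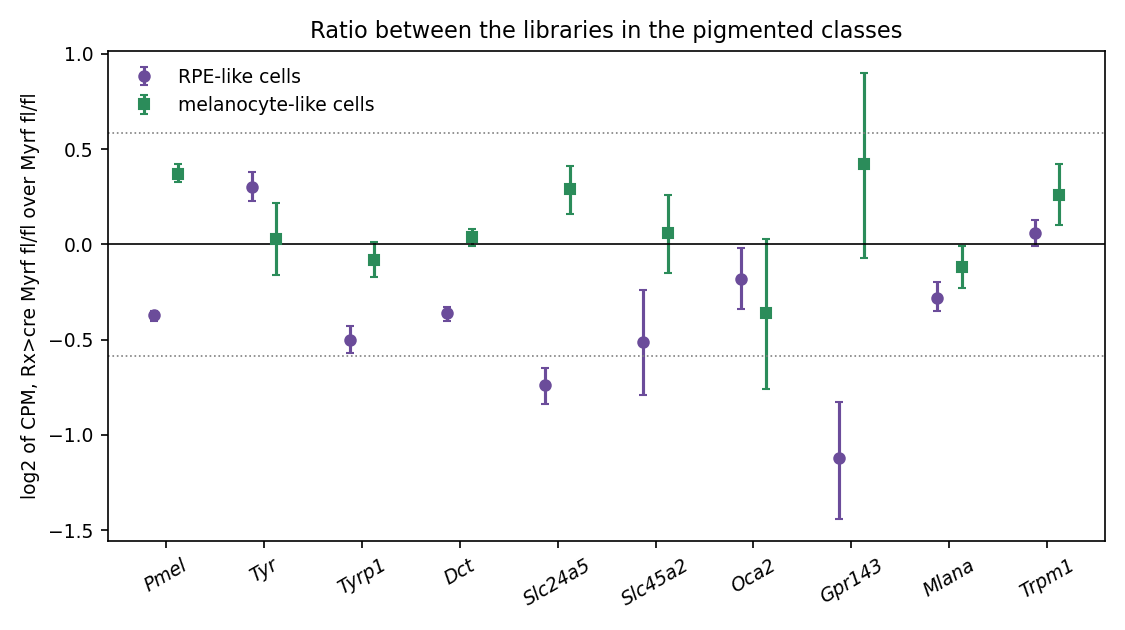
Log2 ratio of CPM, Rx>cre Myrf fl/fl over Myrf fl/fl, for each member in RPE-like cells (circles) and melanocyte-like cells (squares), with 95% intervals for counting error and dotted lines at 1.5-fold. Pmel and Slc24a5 lie below 0 in RPE-like cells (-0.37 and -0.74) and above 0 in melanocyte-like cells (0.37 and 0.29).

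The composition of the set differed between the 2 pigmented classes within each library. In the control, Slc45a2 was 8.76 times, Tyrp1 3.7 times, Dct 2.92 times, Mlana 2.73 times and Slc24a5 2.28 times higher in melanocyte-like than in RPE-like cells. Pmel (1.08 times), Tyr (1.16 times), Oca2 (1.2 times), Gpr143 (1.24 times) and Trpm1 (1.05 times) stood near the same level in both, and the intervals for Gpr143 and Trpm1 included equality. RPE-like and melanocyte-like cells of the control thus had similar shares of tyrosinase and fibril transcripts and very different shares of the tyrosinase relatives and of Slc45a2.

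In the mutant the same comparison gave larger ratios for most members. Slc45a2 was 13 times, Tyrp1 4.95 times, Slc24a5 4.64 times, Dct 3.85 times, Gpr143 3.63 times and Pmel 1.81 times higher in melanocyte-like cells. Tyr, at 1174 CPM in RPE-like and 1121 CPM in melanocyte-like cells, and Oca2, at 229 and 242 CPM, had intervals that included equality. Per 100 Pmel UMIs, Dct gave 114 in control and 90 in mutant melanocyte-like cells and Tyrp1 gave 34.2 and 25. All values for this class rest on 30 control and 18 mutant cells.

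In unpigmented cells the members were seen at low levels that free RNA from broken cells can leave in droplets. In progenitor-like cells Pmel was at 33.3 CPM (30.6 to 36.2) in control and 21.1 CPM (19.2 to 23.2) in mutant cells. Control RPE-like cells thus held 417 times and mutant ones 508 times the progenitor level of Pmel. Dct was at 17.1 and 11.1 CPM, Tyrp1 at 9.8 and 3.61 CPM, Trpm1 at 7.02 and 4.85 CPM and Tyr at 5.25 and 2.61 CPM. Mlana (2.42 and 1.9 CPM), Oca2 (1.3 and 0.523 CPM) and Slc45a2 (0.413 and 0.333 CPM) were rarer still, and for Gpr143 6 UMIs were seen in control and 0 in mutant cells. For 8 of these 9 members the level was lower in the mutant progenitor-like cells by between 1.24 and 2.71 times, and for Slc45a2 and Mlana the interval of the log2 ratio included 0.

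Summed without Slc24a5, the other 9 members were lower in the mutant in 9 unpigmented classes of the retina and the tissue around it. The levels were 77 and 46.1 CPM in progenitor-like cells (-0.73, -0.86 to -0.62), 84.6 and 46.8 CPM in neurogenic cells (-0.84), 166 and 66.1 CPM in photoreceptor-like cells (-1.32) and 105 and 49.6 CPM in amacrine-like cells (-1.06). Outside the retina they were 171 and 63.4 CPM in mesenchyme-like cells (-1.42), 53 and 23.4 CPM in pericyte-like cells (-1.15), 186 and 25.4 CPM in endothelial-like cells (-2.83), 416 and 28.8 CPM in white blood-like cells (-3.81) and 55.7 and 8.87 CPM in red blood-like cells (-2.52). In RPE-like cells the same 9 members had a log2 ratio of -0.32 (-0.33 to -0.30), nearer to 0 than in any of these classes. In muscle-like, surface epithelium-like and Schwann-like cells the intervals included 0. Lens-like cells were not compared because the control had 256 such cells and the mutant had 1. Of the clusters without a name, 1 of 421 control and 437 mutant cells went the other way, at 95 and 104 CPM (0.13, -0.16 to 0.42).

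Some of these class values rested on few cells. In control white blood-like cells 1 cell held 553 of the 727 UMIs of the 9 members, and in control endothelial-like cells 1 cell held 413 of 630. Without the cells that held 20 or more such UMIs, a limit chosen after the values were seen, the levels were 66.8 and 28.8 CPM in white blood-like, 56.8 and 25.4 CPM in endothelial-like, 72.2 and 25.3 CPM in mesenchyme-like and 74.5 and 41.8 CPM in progenitor-like cells. The control level remained the higher one in each of these classes. Subtracting the progenitor level left the summed log2 ratio in RPE-like cells at -0.33, while that of Slc24a5, whose progenitor level was high, went from -0.74 to -1.15.

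Slc24a5 behaved unlike the other members outside the pigmented classes. Of its UMIs in kept cells, 76.2% in the control and 86.7% in the mutant lay outside RPE-like and melanocyte-like cells, against 3.65% to 10.7% for the other members. Its progenitor level was 287 CPM in control and 271 CPM in mutant cells, well above that of Pmel. In amacrine-like cells it was at 333 and 342 CPM, and in red blood-like cells at 27.9 and 37.7 CPM. These levels differed between classes by more than counting error.

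The levels of Slc24a5 in unpigmented classes matched those of Myef2, a gene for a myelin expression factor that lies on the opposite strand and shares 4050 bases with Slc24a5 (chr2:125084628-125088677, at the downstream ends of both). Progenitor-like cells had 4870 Slc24a5 and 4616 Myef2 UMIs in the control and 5711 and 5716 in the mutant. Neurogenic cells had 2739 and 2644 in the control and 2999 and 3213 in the mutant. Over the 37 pairs of class and library without the pigmented ones, the ratio of Slc24a5 to Myef2 had a median of 0.999 and ran from 0.778 to 1.42. In RPE-like cells the ratio was 12.1 for the control library and 6.39 for the mutant library. In melanocyte-like cells it was 47.2 and 62.6.

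Within progenitor-like cells UMIs of the 2 genes occurred together more often than independent occurrence gives. Among 1991 control progenitor-like cells of over 4000 up to 8000 UMIs, 84% of cells with a Myef2 UMI also held a Slc24a5 UMI, against 44.7% of cells without one, and in 2369 mutant cells these shares were 83.2% and 42.8%. Both genes were seen in 1151 control and 1354 mutant cells, against 983 and 1148 if they occurred independently. Myef2 itself was at 78.9 and 89.6 CPM in RPE-like cells. With the Myef2 level subtracted, Slc24a5 was at 879 and 483 CPM in RPE-like cells, a log2 ratio of -0.86 in place of -0.74, and at 2133 and 2615 CPM in melanocyte-like cells, 0.29 as before. In the progenitor-like cells of the mutant the same subtraction gave -0.238 CPM. How reads over the shared bases were assigned was not tested here.

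**Figure D4:**
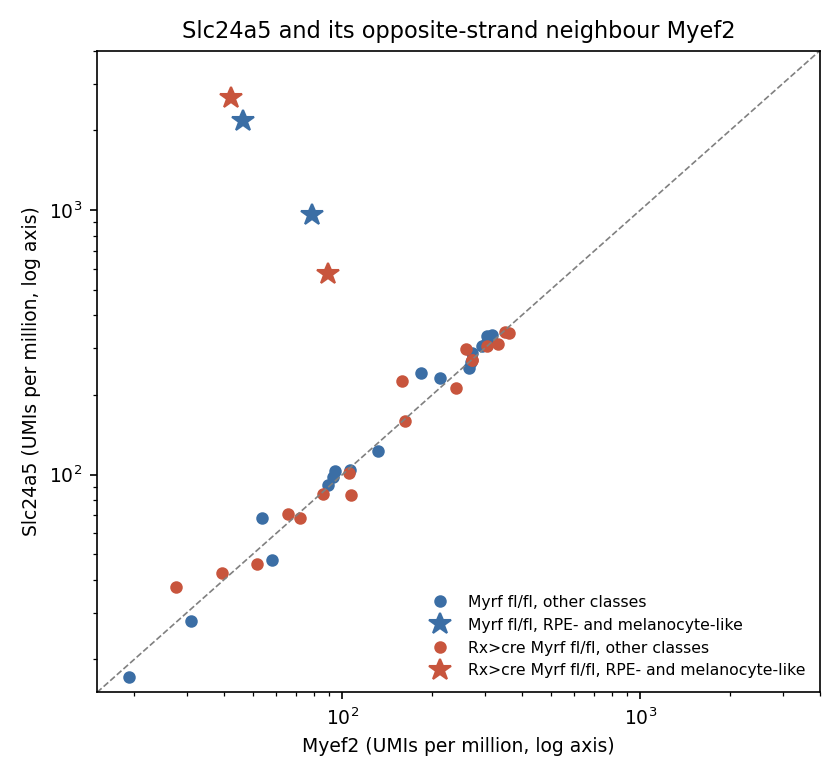
Slc24a5 against Myef2, both in CPM on log axes, for each class and library of at least 15 cells; the dashed line marks equal levels. The unpigmented classes (circles) follow the line with ratios between 0.778 and 1.42, and the RPE-like and melanocyte-like cells (stars) lie above it with ratios from 6.39 to 62.6.

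The wider melanosome pathway was read from a list of 36 genes of melanosome trafficking and biogenesis, of which 33 were measured in RPE-like cells. By at least 1.5-fold 9 were lower (27.3%) and 1 was higher (3.03%) in the mutant, against 12.0% and 7.54% of all measured genes, and the list's median log2 ratio was -0.26. The list was chosen with earlier results of these data known, so its shares are a description and not independent evidence. In cells over 8000 UMIs 10 of 33 were lower and 1 higher, and in cells of at most 8000 UMIs 8 of 25 were lower and 3 higher, against 11.8% and 24.1% of all measured genes lower, and 9.30% and 11.7% higher, in these 2 sets of cells. Among the lower ones were Rab27a, the small GTPase that tethers melanosomes (478 and 199 UMIs, 148 and 87.9 CPM, a log2 ratio of -0.75 with its interval below 0), and its partners Myrip, which links it to myosin VIIa (90 and 40.6 CPM, -1.13, -1.50 to -0.81), and Sytl2, a synaptotagmin-like effector (77.3 and 35.3 CPM, -1.11, -1.51 to -0.76). The myosins themselves, Myo7a (55.6 and 51.2 CPM) and Myo5a (29.5 and 26.5 CPM), had intervals that included 0.

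Other lower genes of the list have other roles in the organelle. Hps3, a subunit of the BLOC-2 complex that carries cargo to melanosomes, was at 30.4 and 9.27 CPM (-1.61, -2.47 to -1.02). Mfsd12, needed for cysteine import into melanosomes, was at 16.1 and 5.3 CPM on 52 and 12 UMIs (-1.44, -2.65 to -0.68). Ostm1, the partner of the lysosomal chloride transporter CLC-7 and the gene of the grey-lethal mouse, was at 168 and 64.9 CPM (-1.36, -1.64 to -1.11). Hps4, of the BLOC-3 complex, was at 62.4 and 36.6 CPM (-0.75, -1.15 to -0.39). The single higher gene was Slc7a11, the cystine transporter of the subtle gray mouse, at 25.8 and 47.2 CPM (0.85, 0.45 to 1.31). Rab32 and Dtnbp1 were the remaining lower ones, at -0.80 with an interval of -1.90 to 0.03 and at -0.64. In melanocyte-like cells 23 genes of this list were measured. By that fold 2 were lower (8.7%) and 1 was higher (4.35%), against 11.7% and 10.4% of all genes, and the median was -0.22. The lower one with an interval apart from 0 was Rab32, a small GTPase that directs cargo to melanosomes (41 and 10 UMIs, 72.8 and 30.3 CPM, -1.24, -2.43 to -0.24).

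Regulators of pigment genes were a list of 15, also chosen with earlier results of these data known, of which 12 were measured in RPE-like cells. Mitf was at 168 CPM in control and 159 CPM in mutant cells, a log2 ratio of -0.08 (-0.28 to 0.12), and no difference was detectable. Otx2 was at 682 and 550 CPM (-0.31, -0.41 to -0.21) and Pax6 at 137 and 140 CPM. Lower by at least 1.5-fold were 4 of the 12, against 12.0% of all genes. In cells of at most 8000 UMIs 2 of 9 measured regulators were lower, against 24.1% of all genes. The 4 were Sox10, a neural crest and glial factor (235 and 9 UMIs, -3.89, -5.35 to -3.25), the Mitf relatives Tfeb (60 and 15 UMIs, -1.36, -2.42 to -0.66) and Tfe3 (53 and 21 UMIs, -0.77, -1.63 to -0.07), and Ednrb, the endothelin receptor (126 and 70.6 CPM, -0.83, -1.11 to -0.57). The median of this list was -0.03. In melanocyte-like cells 1 of 9 measured regulators was lower (11.1%), Tfeb at -0.99, against 11.7% of all genes, a share close to it, and Mitf was at 513 and 470 CPM.

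**Figure D5:**
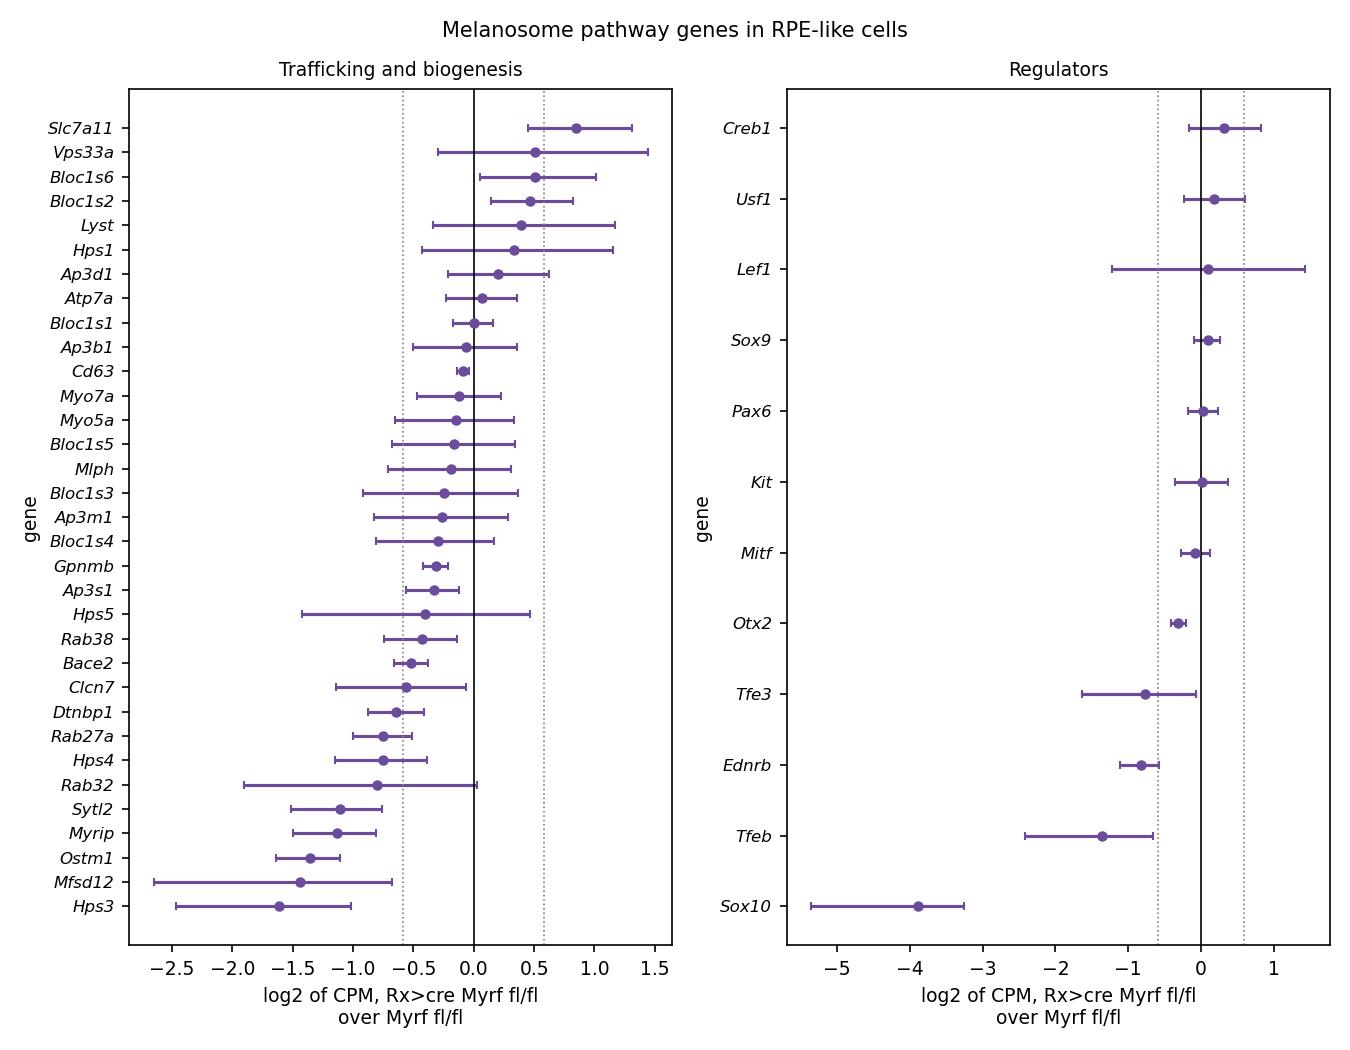
Log2 ratio of CPM, Rx>cre Myrf fl/fl over Myrf fl/fl, in RPE-like cells for the 33 measured genes of melanosome trafficking and biogenesis (left) and the 12 measured regulators (right), with 95% intervals for counting error and dotted lines at 1.5-fold. The lowest values on the left are those of Hps3 (-1.61), Mfsd12 (-1.44) and Ostm1 (-1.36), and on the right that of Sox10 (-3.89), while Mitf lies at -0.08.

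The genes whose level followed the members most closely were ranked by the Pearson correlation of log2(CPM + 1) with the mean of the members over 41 pairs of class and library, among 7181 genes with at least 100 UMIs in the pigmented classes. The points share libraries, and 4 of them are pigmented classes, so the values describe mainly which genes those classes express. Trim63, a ubiquitin ligase (0.943), Ptgds, the prostaglandin D synthase (0.939), Tspan10, a tetraspanin (0.936), and Gpnmb, a relative of Pmel (0.935), came first, followed by Mitf (0.874), Gm45847, Bpifb5 and Car14. Ptgds was at 12773 CPM in control and 5815 CPM in mutant RPE-like cells, and at 8754 and 11009 CPM in melanocyte-like cells. Gpnmb was at 633 and 510 CPM in RPE-like cells and at 1602 and 1567 CPM in melanocyte-like cells. Of the members themselves, 9 had a correlation of 0.936 to 0.982 with the mean, and Slc24a5 had 0.729.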

How the data were processed

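Single-cell libraries (10x Genomics 3′ chemistry) were made from pooled eye cups, 1 per genotype. The authors aligned reads to mm10 and counted UMIs with Cell Ranger, and the deposited tables list these raw counts for each gene and barcode, without normalization. The study's notes name version 7.1.0 while the table headers name 3.1.0, and the gene annotation used for counting is not given in the sources used here. Groups came from the genotype labels.

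Barcodes with at least 200 genes and at most 15% mitochondrial UMIs were kept. The upper limit of 2000 UMIs in the study's methods was used only as an alternative. Doublets were scored with Scrublet (scanpy 1.11.5). In each library the barcodes with the highest scores were removed, at an expected 0.8% per 1000 barcodes, which took out 1682 and 1230. Scrublet's own threshold called 0% of control and 5.48% of mutant barcodes. With doublets kept, the RPE-like class held 598 control and 270 mutant cells, against 484 and 187. Clustering used Seurat 5.3.0 in R 4.3.3 (2000 variable genes, anchor integration, 30 principal components, Louvain resolution 1), with 80 pigment, marker and sex-linked genes left out. Class names were rebuilt from marker lists, so they may differ from those of the study, and the clusters had been seen when the limits for naming were set.

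UMIs were summed per class and library and given per 1000000 UMIs of that class (CPM). Ratios were log2 with 1 CPM added on each side, with exact conditional Poisson intervals, which do not include the added 1 CPM. Levels have exact Poisson and shares Clopper-Pearson intervals. The interval script was tested on simulated counts. A gene was measured in a class with at least 20 UMIs over both libraries. A count of 0 was given the upper limit of 3 counts. UMIs of 3′ libraries mark transcript ends and were not divided by gene length. Gene positions came from the GENCODE mouse annotation on GRCm38.

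The members and the gene lists were chosen with earlier results of these data known. All 10 members are named, and of each list up to 8 genes per class that passed 1.5-fold with an interval apart from 0, with Dtnbp1, Rab32 and the myosins added after their values were seen, as were Mitf, Otx2, Pax6 and Myef2. The 8 genes most like the members were ranked as stated. No test between genotypes was possible with 1 library each. Alternatives covered depth, mitochondrial share, doublets, clustering, thinning, scaling, free RNA, sex and a marker gate.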

Additional observations from a re-analysis of the deposited data

Results flagged for a closer look

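For 2 members the ratio of mutant to control had opposite signs in the 2 pigmented classes, with counting intervals apart from 0 in both. Pmel had a log2 ratio of -0.37 in RPE-like cells and 0.37 in melanocyte-like cells. Slc24a5 had a log2 ratio of -0.74 in RPE-like cells and 0.29 in melanocyte-like cells. With 1 library per genotype these differences between the classes were not tested. The marker gate for melanocytes (321 and 235 cells) gave Pmel at -0.73 and Slc24a5 at -0.54, but RPE-like cells held 65.3% and 49.7% of the member UMIs in that gate. In melanocyte-like cells that held Xist but lacked Y-linked UMIs (7 and 10 cells) Pmel was at 0.23 and Slc24a5 at 0.23, and in those that held Y-linked UMIs but lacked Xist (18 and 5 cells) they were at 0.21 and 0.24.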

How the results depend on the processing

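The log2 ratio of the summed members in RPE-like cells was -0.33. It turned positive in cells of at most 2000 UMIs (0.25) and at Louvain resolution 2 (0.02, where the deeper cells are unnamed and fall outside the class). It came to -0.64 with at most 5% mitochondrial UMIs, -0.40 with doublets kept, -0.30 without integration, -0.10 after thinning each cell to 1000 UMIs, -0.06 as a mean of CPM per cell, -0.46 in cells with Xist, -0.23 in cells with Y-linked UMIs, -0.13 in cells of over 4000 up to 8000 UMIs, -0.41 over 8000 UMIs and -0.46 under the marker gate. Alternatives added after seeing the data gave -0.55 over 16000 UMIs and -0.50 in the deeper cluster led by Rgr. The last 2 settings gave 6 and 5 members lower by at least 1.5-fold, against 2 (12.3% and 13.7% of all measured genes were lower there). The count was 1 in cells of at most 2000 UMIs (26.5% of all genes), at resolution 2 (14.9%), after thinning (20.5%, from a separate draw over all genes), as a mean per cell (22.6%), with Y-linked UMIs (19.5%) and in cells of over 4000 up to 8000 UMIs (19.5%). It was 4 with Xist (13.7%), 4 over 8000 UMIs (11.8%) and 5 with at most 5% mitochondrial UMIs (15.3%). In cells of at most 2000 UMIs 3 members, Slc45a2, Mlana and Trpm1, were higher by that fold, against 18.1% of all genes.

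In melanocyte-like cells the summed ratio of 0.15 became 0.10 with at most 5% mitochondrial UMIs, 0.21 after thinning and -0.68 under the marker gate, which took in 321 and 235 cells, with 65.3% and 49.7% of its member UMIs in RPE-like cells, and gave 6 members lower, against 0 (8.79% of all genes). The count of lower members was 1 in cells with Y-linked UMIs (Oca2, 18.8%). Higher by at least 1.5-fold were 2 members after thinning, Oca2 and Trpm1 (11.2% of all genes). Oca2 there rested on means of 0.2 and 0.444 UMIs per cell. With Xist 1 member was higher (Gpr143, 14.1%), as was 1 with Y-linked UMIs (Trpm1, 13.5%). In progenitor-like cells the ratio of -0.20 became -0.52 in cells of at most 2000 UMIs, -0.26 with Xist, -0.14 over 8000 UMIs, -0.10 under the marker gate and, as an alternative added after seeing the data, -0.73 without Slc24a5. Of the regulators, 2 of 9 measured were lower in cells of at most 8000 UMIs, against 4 of 12, where 24.1% and 12.0% of all genes were.

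Signs of single members in RPE-like cells turned in cells of at most 2000 UMIs for Pmel (0.28), Tyr (-0.39), Dct (0.19), Slc45a2 (0.75), Oca2 (0.07) and Mlana (0.66). They turned at resolution 2 for Tyrp1 (0.13), Slc45a2 (0.47), Oca2 (0.22) and Mlana (0.44), after thinning for Slc45a2 (0.75) and Mlana (0.22), as a mean per cell for Oca2 (0.05) and Mlana (0.21), and in cells of over 4000 up to 8000 UMIs for Oca2 (0.52). Trpm1, whose interval included 0 (0.06), was below 0 in cells of over 4000 up to 8000 UMIs (-0.07), under the marker gate (-0.12), with at most 5% mitochondrial UMIs (-0.01), over 16000 UMIs (-0.16) and in the cluster led by Rgr (-0.29). Over these alternatives Gpr143 ran from -1.57 to -0.77 and Slc24a5 from -1.15 to -0.07, and in the depth bin of over 8000 up to 16000 UMIs Gpr143 was at -0.41 (-0.98 to 0.13). The cause of these shifts was not tested. Melanocyte-like cells gave no value in cells of at most 2000 UMIs or of over 4000 up to 8000 UMIs, since at least 1 library had none.

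No paired analysis was possible because each genotype had 1 library. The spread between animals is unknown and the spread between cells is left out of the intervals, so the intervals understate the error. Depth limits the low members, since Slc45a2 and Gpr143 had 164 and 123 UMIs in mutant RPE-like cells.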

Other observations

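Among clusters that the marker lists did not name, 1 shallow cluster (621 control and 258 mutant cells, median 862 and 792 UMIs) held the highest level of the 9 members other than Slc24a5 outside the pigmented classes. The level was 563 CPM in control and 268 CPM in mutant cells, a log2 ratio of -1.07 (-1.42 to -0.74). Slc24a5 and Myef2 were at 307 and 293 CPM in the control cells of this cluster and at 298 and 260 CPM in the mutant ones.

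In mesenchyme-like cells 29 control and 6 mutant cells held 20 or more UMIs of the 9 members, and together they held 58.2% and 60.4% of those UMIs in the class. Per 100 Pmel UMIs, mesenchyme-like cells of the control held 83.6 Dct and 18.4 Mlana UMIs, between the values of RPE-like cells (42 and 8.74) and melanocyte-like cells (114 and 22.2). Mesenchyme-like cells of the mutant held 37 and 12.8.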
